A study of Mus musculus with 8 samples.

Results

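The monocyte-attracting CC chemokines examined here were *Ccl2*, *Ccl7*, *Ccl8*, *Ccl12*, *Ccl6* and *Ccl9*, together with the receptor *Ccr2*. They were chosen by gene symbol, looked up from the Ensembl identifiers of the count files, and make up 7 of 55416 listed genes. All 7 passed the filter on low counts, as did 18560 genes in all. Lung RNA was sequenced from C57BL/6 mice aged 6 to 8 weeks, which the methods give as female C57BL/6J. Control mice (n = 3) received DMSO through the tail vein and then normal saline into the peritoneum. LPS mice (n = 3) received LPS, the endotoxin of Gram-negative bacteria, at 35 mg/kg into the peritoneum, and a DMSO injection is not stated for them. Dual-treated mice (n = 2) received the PAD inhibitor YW3-56 at 10 mg/kg in DMSO 0.5 h before the same LPS dose. RNA came from the lung of 1 side of each mouse, taken 24 h after LPS or saline. The labels and the paper's account of its RNA-seq results give 2 mice for the dual treatment, whereas its methods speak of 3 sequenced mice.

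CC chemokines are small secreted proteins that direct leukocytes along a gradient to inflamed tissue. CCL2, CCL7, CCL8 and CCL12 belong to the monocyte chemoattractant proteins; CCL2, CCL7 and CCL12 act through CCR2, the receptor by which classical monocytes leave the bone marrow and enter inflamed organs, whereas mouse CCL8 also acts through CCR8. CCL6 and CCL9 are rodent chemokines of macrophages and other myeloid cells that act through CCR1. In the lung, endotoxin makes macrophages, endothelium and epithelium produce such chemokines.

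Total counts per library ran from 19061949 to 20908608. Levels are given as CPM, the counts of a gene relative to the scaled total of its library, after TMM normalization, a scaling by the bulk of the genes. The LPS libraries of mice 6 and 7 stood apart from the other 6. Squamous epithelium markers summed to 682 CPM in mouse 6 and 1967 CPM in mouse 7 of the LPS group, against 0.276 to 1.54 in the other 6 mice. *Krt4* was the most abundant in mouse 6, at 293 CPM, and *Krt13* in mouse 7, at 887 CPM. Skeletal muscle markers summed to 438 and 1118 CPM in these mice, against 16.2 to 92.6 in the others. *Acta1* was the most abundant in mice 6 and 7, and *Ttn* in the other 6. All 6 squamous and 5 of 6 muscle markers were called higher with LPS, where called means an adjusted p under 0.05 and a fold change over 2. All 6 of each list were called lower from LPS to dual treatment. For muscle, the calls of *Myh4* and *Mylpf* were lost without dual-treated mouse 2 (log2FC -7.80 and -4.24) or 5 (-6.49 and -4.61). Without LPS mouse 6 or LPS mouse 7 only 1 squamous marker, *Krt13*, passed the filter on low counts, and it was called in both comparisons. Of the 6 tested without dual-treated mouse 2, 3 were called lower from LPS to dual treatment, and without dual-treated mouse 5 it was 2. Results are therefore given with and without these mice; the part of this tissue signal in them was not tested. Without them the LPS group is 1 mouse, assumed to vary like the mice of the other groups. Calls of *Krt13* and of several muscle markers changed in that fit. With LPS the log2FC was then 0.63 for *Krt13*, 0.64 for *Acta1*, 0.09 for *Ckm*, 0.99 for *Tnnt3* and -1.26 for *Mylpf*. From LPS to dual treatment it was -1.95 for *Acta1* and -1.19 for *Ttn*, and its sign turned for *Krt13* (1.24) and *Mylpf* (1.46).

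All 6 chemokines were called higher and *Ccr2* lower in LPS than in control lungs. Over all 18560 genes, 17.9% were called higher and 21.3% lower. In dual-treated lungs against control, the same 6 chemokines were called higher and *Ccr2* was not called, beside 5.25% of all genes higher and 1.9% lower. In dual-treated against LPS lungs only *Ccr2* of the 7 was called, as higher, beside 19.8% of all genes higher and 14% lower. The median log2FC of the 7 genes was 2.87, 3.19 and 0.39 in these comparisons, in this order, and that of all tested genes was -0.01, 0.00421 and 0.06. The comparisons share the control or the LPS mice and are not independent of each other. In lung RNA, a change in the number of cells that express a gene cannot be told apart from a change in RNA per cell.

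Among the ligands of CCR2, *Ccl2* (ENSMUSG00000035385, plus strand of chr11:81926397-81928279, GRCm39), the main monocyte chemoattractant, had 4.35, 6.80 and 4.18 CPM in control mice 1, 2 and 4. It had 145, 50.4 and 49.2 CPM in LPS mice 1, 6 and 7. In dual-treated mice 2 and 5 it had 57.8 and 35.9 CPM. Every treated mouse thus lay above every control mouse, LPS mouse 1 stood far above the other treated mice, and the LPS and dual-treated mice overlapped. Mean CPM was 5.11 ± 1.47 (SD, n = 3) for control, 81.5 ± 54.8 (SD, n = 3) for LPS and 46.8 ± 15.5 (SD, n = 2) for dual-treated lungs. *Ccl2* rose 15.9-fold with LPS, a log2FC of 3.99 with a standard error of 0.47 (adjusted p = 5.56e-05, Benjamini-Hochberg over all tested genes, quasi-likelihood test of edgeR). In dual-treated lungs it was 9.14-fold above control (adjusted p = 0.00252, same edgeR test). From LPS to dual treatment the log2FC was -0.80, with a 95% interval from -1.82 to 0.22 (adjusted p = 0.157, same edgeR test). This comparison rested on which LPS mice were used: without LPS mouse 1 the log2FC was -0.10. With LPS mice 6 and 7 left out instead, so that mouse 1 alone stood for LPS, *Ccl2* was called lower in dual-treated lungs, with a log2FC of -1.64 (adjusted p = 0.00352, same edgeR test, in a range from 0.00352 to 0.956 over all settings tried). The log2FC with LPS was 3.29 without LPS mouse 1 and 4.83 without LPS mice 6 and 7.

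*Ccl7* (ENSMUSG00000035373, plus strand of chr11:81936532-81938351) encodes a further ligand of CCR2 that also binds other CC receptors. It had 1.03, 3.85 and 2.16 CPM in the control mice, 29.8, 15.6 and 9.55 in the LPS mice and 28.0 and 16.0 in the dual-treated mice, in the order of mice given above. The treated mice all lay above the control mice, and both dual-treated mice fell within the range of the LPS mice. The rise was 7.76-fold with LPS (log2FC 2.96, standard error 0.52, adjusted p = 0.000752, quasi-likelihood test of edgeR) and 9.35-fold with the dual treatment (log2FC 3.22, standard error 0.55, adjusted p = 0.00454, same edgeR test). Between dual-treated and LPS lungs the log2FC was 0.27, with a 95% interval from -0.87 to 1.41 (adjusted p = 0.667, same edgeR test). Its sign turned when 1 library was left out, to -0.05 without LPS mouse 7 and to -0.21 without dual-treated mouse 2, and was -0.44 without LPS mice 6 and 7. Without these mice the log2FC with LPS was 3.66.

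*Ccl12* (ENSMUSG00000035352, plus strand of chr11:81992645-81994466), a rodent gene close to *Ccl2*, had 0.979, 0.751 and 0.920 CPM in the control mice. The LPS mice had 13.4, 14.1 and 6.03 CPM, and 15.5 and 12.6 CPM were found in the dual-treated mice. All treated mice were thus well above the control mice, and the treated groups overlapped, with LPS mouse 7 lowest among them. *Ccl12* rose 12.6-fold with LPS (log2FC 3.65, standard error 0.35, adjusted p = 1.57e-05, quasi-likelihood test of edgeR) and was 15.9-fold above control in dual-treated lungs (log2FC 3.99, standard error 0.37, adjusted p = 0.000186, same edgeR test). The log2FC between the treated groups was 0.33, with a 95% interval from -0.38 to 1.05 (adjusted p = 0.39, same edgeR test). Without LPS mice 6 and 7 it was 0.06, and the log2FC with LPS was 3.92.

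*Ccl8* (ENSMUSG00000009185, plus strand of chr11:82006007-82007625) was the ligand with the fewest reads, with at most 71 counts in any library. The control mice had 0.979, 0.516 and 0.506 CPM, the LPS mice 2.37, 2.43 and 1.51, and the values were 3.22 and 2.28 in dual-treated mice. The treated mice again lay above all control mice, and dual-treated mouse 5 fell between the LPS mice. The rise was 3.14-fold with LPS (log2FC 1.65, standard error 0.38, adjusted p = 0.00378, quasi-likelihood test of edgeR) and 4.11-fold with the dual treatment (log2FC 2.04, standard error 0.40, adjusted p = 0.00959, same edgeR test). The call against control in dual-treated lungs was lost without dual-treated mouse 2, at a log2FC of 1.74 (adjusted p = 0.0777, same edgeR test, in a range from 0.000567 to 0.144 over all settings tried). Between the treated groups the log2FC was 0.39, with a 95% interval from -0.48 to 1.25, and 0.21 without LPS mice 6 and 7, where the log2FC with LPS was 1.83. Over all settings tried the log2FC between the treated groups ran from 0.09 to 0.72.

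*Ccl6* and *Ccl9* encode ligands of CCR1. *Ccl6* (ENSMUSG00000018927, minus strand of chr11:83478708-83483913) had 80.8, 59.0 and 75.6 CPM in the control mice, 181, 181 and 90.3 in the LPS mice and 342 and 215 in the dual-treated mice. The groups did not overlap, although LPS mouse 7 lay close to the highest control mouse, and both dual-treated mice lay above all LPS mice. Mean CPM was 71.8 ± 11.4 (SD, n = 3) for control, 150.5 ± 52.2 (SD, n = 3) for LPS and 279 ± 89.9 (SD, n = 2) for dual-treated lungs. *Ccl6* was 2.09-fold higher with LPS, just past the fold threshold (log2FC 1.07, standard error 0.27, adjusted p = 0.0066, quasi-likelihood test of edgeR), and 3.88-fold higher with the dual treatment (log2FC 1.96, standard error 0.30, adjusted p = 0.00263, same edgeR test). From LPS to dual treatment its log2FC was 0.89, a 1.85-fold difference with a 95% interval from 1.17-fold to 2.94-fold (adjusted p = 0.0268, same edgeR test), so that it passed the test but not the fold threshold.

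For *Ccl6* the fold threshold decided the calls. With LPS its log2FC was under the threshold without control mouse 2 (0.94), LPS mouse 1 (0.92) or LPS mouse 6 (0.92), and with scaling by the upper quartile (0.97) or by library size only (0.77). From LPS to dual treatment it was called higher without LPS mouse 1 (1.04), LPS mouse 6 (1.04) or dual-treated mouse 5 (1.16), and with library size only (1.24). Over all settings tried the log2FC of *Ccl6* in this comparison ran from 0.49 to 1.24. Without dual-treated mouse 2 its log2FC with the dual treatment against control was 1.55. Scaling by library size moved the median log2FC of all genes by -0.28 with LPS and by 0.32 from LPS to dual treatment, to -0.29 and 0.38. The share of called genes that were higher went from 45.6% to 32.5% and from 58.5% to 74.7% in these comparisons. With LPS mice 6 and 7 left out, *Ccl6* had a log2FC of 1.34 with LPS and of 0.62 from LPS to dual treatment.

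*Ccl9* (ENSMUSG00000019122, minus strand of chr11:83463745-83473161), which lies next to *Ccl6*, had 15.0, 12.4 and 13.7 CPM in the control mice, 115, 136 and 49.5 in the LPS mice and 183 and 79.4 in the dual-treated mice. The lowest treated mouse was far above the control mice, which differed little among themselves, and the treated groups overlapped. *Ccl9* rose 7.31-fold with LPS (log2FC 2.87, standard error 0.40, adjusted p = 0.000173, quasi-likelihood test of edgeR) and was 9.59-fold above control with the dual treatment (log2FC 3.26, standard error 0.43, adjusted p = 0.00118, same edgeR test). The log2FC between the treated groups was 0.39, with a 95% interval from -0.52 to 1.30, and it was -0.36 without dual-treated mouse 2, where the log2FC of the dual treatment against control was 2.51. Without LPS mice 6 and 7 it was 0.19, and the log2FC with LPS was 3.07.

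*Ccr2* (ENSMUSG00000049103, plus strand of chr9:123901982-123913594), the receptor of the first group of ligands, had 21.7, 16.7 and 17.7 CPM in the control mice. The LPS mice had 2.31, 2.08 and 1.73 CPM, from 39, 36 and 31 counts. The dual-treated mice had 25.1 and 30.5 CPM, from 553 and 695 counts. The groups did not overlap: all LPS mice lay far below the others, and both dual-treated mice lay above the highest control mouse. Mean CPM was 18.7 ± 2.66 (SD, n = 3) for control, 2.04 ± 0.294 (SD, n = 3) for LPS and 27.8 ± 3.83 (SD, n = 2) for dual-treated lungs. *Ccr2* was 9.15-fold lower in LPS than in control lungs (log2FC -3.19, standard error 0.18, adjusted p = 1.12e-06, quasi-likelihood test of edgeR). Dual-treated lungs had 13.6-fold more of it than LPS lungs (log2FC 3.77, standard error 0.19, adjusted p = 2.42e-06, same edgeR test). Against control the dual-treated lungs were 1.49-fold higher, which is under the fold threshold (log2FC 0.57, 95% interval from 0.19 to 0.95, adjusted p = 0.0493, same edgeR test). Without LPS mice 6 and 7 the log2FC was -3.01 with LPS and 3.58 from LPS to dual treatment.

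**Figure D1:**
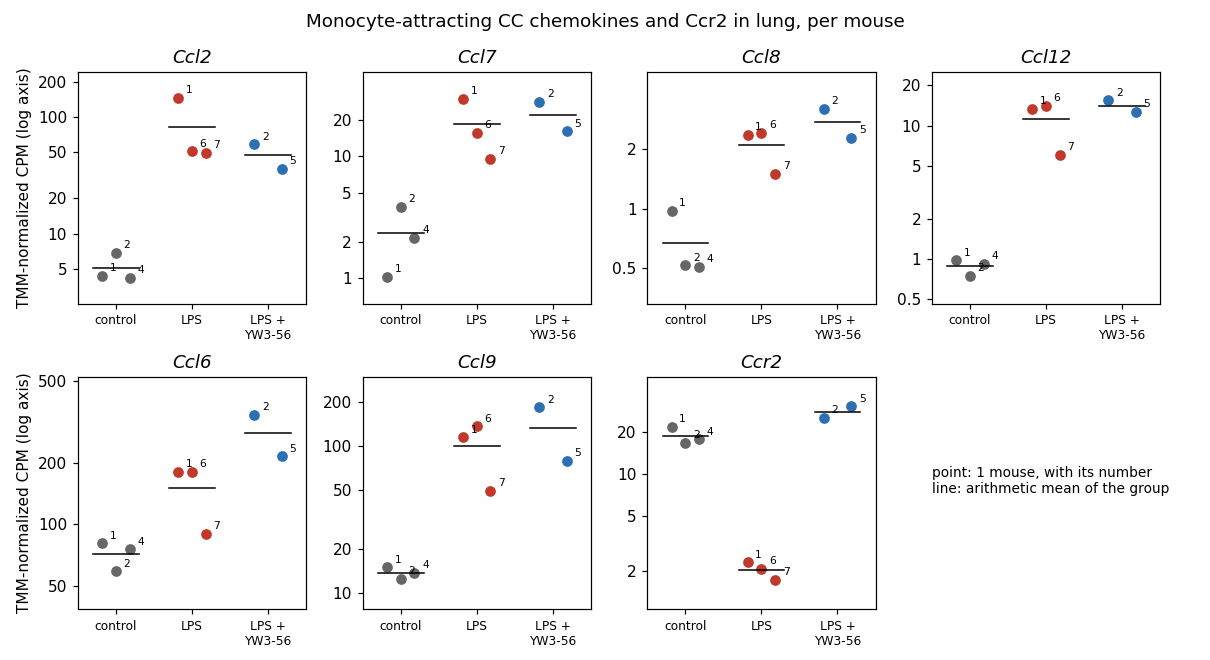
Level of each of the 7 genes in every mouse, as TMM-normalized CPM on a log axis, by group; points are mice with their numbers and lines are arithmetic means. *Ccr2* lies between 1.73 and 2.31 CPM in the LPS mice and between 16.7 and 30.5 in all others, whereas each chemokine is higher in every treated mouse than in every control mouse.

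LPS mouse 7, which had the highest sum of squamous markers, had the lowest level of each of the 6 chemokines among the LPS mice. LPS mouse 1 was above mouse 6 for *Ccl2* and *Ccl7* and below it for *Ccl8*, *Ccl12* and *Ccl9*. Dual-treated mouse 2 was above dual-treated mouse 5 for each of the 6, whereas *Ccr2* was higher in mouse 5. The 4 CCR2 ligands summed to 190.3 CPM in LPS mouse 1, 82.5 in mouse 6 and 66.3 in mouse 7, to 105 and 66.8 in dual-treated mice 2 and 5, and to between 7.34 and 11.9 in the control mice.

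Levels of different genes were compared as CPM per kilobase of the canonical transcript. In control lungs *Ccl6* was highest, at 49.9 ± 7.91 CPM per kilobase (SD, n = 3), followed by *Ccl2* at 6.29 ± 1.80, *Ccl9* at 4.55 ± 0.421, *Ccr2* at 3.27 ± 0.464, *Ccl7* at 2.91 ± 1.76, *Ccl8* at 1.29 ± 0.524 and *Ccl12* at 1.10 ± 0.147. The ranges of *Ccl6*, *Ccl2*, *Ccl9* and *Ccr2* over the control mice did not overlap each other, whereas that of *Ccl7* overlapped those of *Ccl9*, *Ccr2* and *Ccl8*, and that of *Ccl8* overlapped that of *Ccl12*. In LPS lungs *Ccl6* and *Ccl2* were level within their spread, at 104.5 ± 36.2 and 100.2 ± 67.4 CPM per kilobase (SD, n = 3), and *Ccr2* was lowest at 0.356 ± 0.0512. In dual-treated lungs *Ccl6* led again with 194 ± 62.5 CPM per kilobase (SD, n = 2), above *Ccl2* with 57.6 ± 19.1, while *Ccr2* with 4.85 ± 0.669 overlapped *Ccl8* with 5.34 ± 1.29. Per length of all annotated exons, *Ccr2* and *Ccl7* changed places in control lungs and *Ccl2* and *Ccl9* in dual-treated lungs.

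The genes of the CC chemokines lie in clusters, and several neighbours of the members differed from them between the treated groups. *Ccl2*, *Ccl7*, *Ccl12* and *Ccl8* lie in this order within 81.2 kb of chromosome 11, with *Ccl11*, which encodes the eosinophil chemoattractant eotaxin, between *Ccl7* and *Ccl12*. *Ccl11* had 0.930, 2.11 and 0.874 CPM in the control mice, 20.6, 13.2 and 14.5 in the LPS mice and 0.726 and 1.05 in the dual-treated mice. It thus rose with LPS like its neighbours (log2FC 3.62), but was called lower from LPS to dual treatment, with a log2FC of -4.16 and a 95% interval from -5.16 to -3.17 (adjusted p = 5.59e-05, quasi-likelihood test of edgeR). The ratio of *Ccl2* to *Ccl11* counts within a library, which needs no scaling, was 4.68, 3.22 and 4.79 in the control mice and 7.03, 3.83 and 3.39 in the LPS mice. It was 79.6 and 34.0 in the dual-treated mice, above the 6 others.

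On the same chromosome, *Ccl5*, *Ccl9*, *Ccl6*, *Ccl3* and *Ccl4* lie in this order within 139 kb. The log2FC from LPS to dual treatment was 0.39 for *Ccl9* and 0.89 for *Ccl6*, whereas *Ccl5*, *Ccl3* and *Ccl4* were called lower, with -3.15, -2.18 and -1.73. The call of *Ccl4* was lost without LPS mouse 1 (log2FC -0.99) and without dual-treated mouse 5 (-1.56). Counts of *Ccl9* relative to *Ccl5* were 1.14, 1.46 and 1.10 in the control mice, 0.383, 0.685 and 0.268 in the LPS mice and 7.37 and 3.00 in the dual-treated mice. The groups did not overlap in this ratio, whereas the control and LPS mice overlapped in that of *Ccl2* to *Ccl11*. These ratios were chosen after the values had been seen and were not tested.

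On chromosome 9, *Ccr1*, *Ccr3* and *Ccr2* lie in this order within 151 kb. *Ccr1*, the receptor of CCL6 and CCL9, had 8.17, 6.57 and 7.49 CPM in the control mice, 32.7, 38.2 and 25.2 in the LPS mice and 57.2 and 31.1 in the dual-treated mice. It was called higher in both treated groups against control (log2FC 2.11 and 2.57) and not between them (0.46, 95% interval from -0.09 to 1.02), the same calls as for *Ccl9*. *Ccr3* had at most 4 counts in any library and was not tested.

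**Figure D2:**
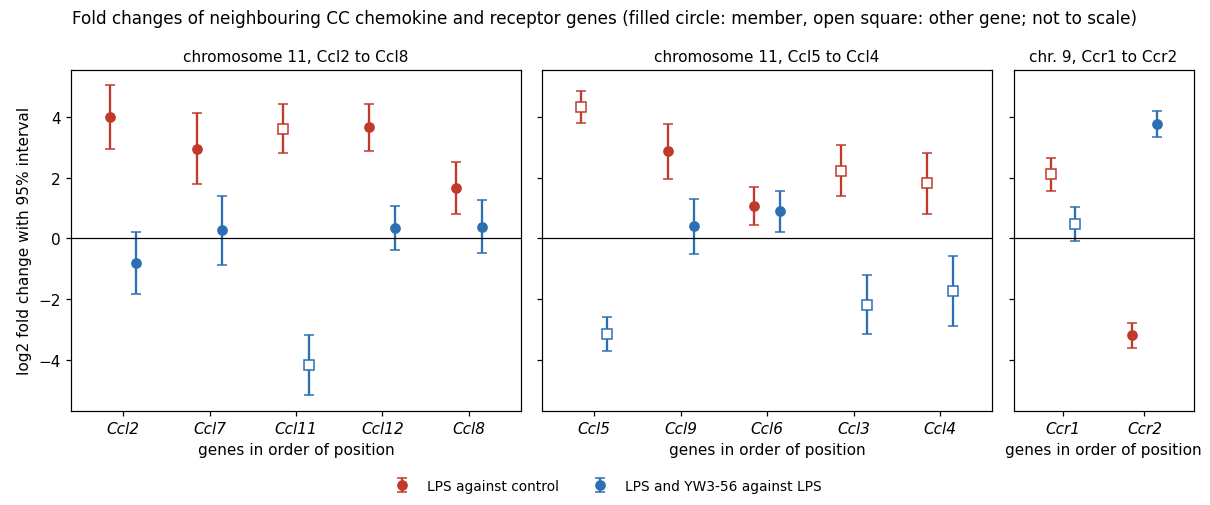
Log2 fold changes with 95% intervals from edgeR's quasi-likelihood fit for tested genes in their order along chromosomes 11 and 9, for LPS against control (red) and dual-treated against LPS (blue); filled circles are members and open squares other genes. From LPS to dual treatment the members on chromosome 11 lie between -0.80 and 0.89, while *Ccl11*, *Ccl5*, *Ccl3* and *Ccl4* lie between -4.16 and -1.73.

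Of 12 other CC chemokine ligands, 11 were tested, since *Ccl1* had at most 2 counts in any library. With LPS 9 were called higher (*Ccl20*, *Ccl19*, *Ccl5*, *Ccl11*, *Ccl22*, *Ccl28*, *Ccl3*, *Ccl4* and *Ccl17*, from the largest to the smallest log2FC) and 2 lower (*Ccl24* and *Ccl25*), with a median log2FC of 2.33. The 9 that had risen were called lower in dual-treated against LPS lungs, with a median over the list of -2.88, whereas with all 8 mice and TMM scaling none of the 6 chemokines examined here was called in this comparison by the edgeR test, with adjusted or unadjusted p, nor was any by DESeq2. *Ccl6* was called higher with library size only and without LPS mouse 1, LPS mouse 6 or dual-treated mouse 5 (log2FC 1.24, 1.04, 1.04 and 1.16), and *Ccl2* lower without LPS mice 6 and 7 (-1.64). Among the other ligands the smallest fall was that of *Ccl4* and the largest that of *Ccl20*, with a log2FC of -1.73 and -4.33. *Ccl25* had a log2FC of 0.98 from LPS to dual treatment and was called higher without LPS mouse 1 (1.14), LPS mouse 7 (1.02) or dual-treated mouse 5 (1.02). It was also called with library size only (1.32), upper quartile scaling (1.07), no filter on low counts (1.01) and a filter of at least 10 counts in every library (1.01).

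Against control, *Ccl5* and *Ccl20* were called higher and *Ccl17* lower in dual-treated lungs, with a median of 0.04 over the list. *Ccl19* (log2FC 1.07) was also called higher without control mouse 4 (2.33). The call of *Ccl20* was lost without control mouse 1, control mouse 4 or dual-treated mouse 2 (log2FC 4.37, 4.15 and 1.74), and that of *Ccl17* without any 1 of the control mice (-1.43, -1.49 and -1.46) or dual-treated mouse 5 (-0.91). With LPS, the call of *Ccl24* was lost without control mouse 2, LPS mouse 1 or LPS mouse 7 (log2FC -0.80, -1.08 and -1.04), with DESeq2 (-1.17) and with no filter on low counts (-1.21). That of *Ccl25* was lost without LPS mouse 6 (-0.89). The test against a fold change of 2 did not call *Ccl5*, *Ccl20* and *Ccl17* in dual-treated lungs against control, nor *Ccl4*, *Ccl17*, *Ccl24* and *Ccl25* with LPS, nor *Ccl4* and *Ccl28* between the treated groups. Without LPS mice 6 and 7, 8 of the 11 were called higher with LPS and 8 lower from LPS to dual treatment, and *Ccl28* was called in neither (log2FC 1.63 and -1.29). Both lower calls with LPS, those of *Ccl24* (-1.41) and *Ccl25* (-0.79), were also lost without these mice.

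Among 6 other genes of CC receptors and scavengers, 5 were tested. *Ccr1*, *Ccr8*, *Ccrl2* and *Ackr1* were called higher with LPS, and *Ccr1* and *Ackr1* with the dual treatment against control. In dual-treated against LPS lungs *Ccr8*, *Ccrl2* and *Ackr1* were called lower. *Ackr1*, a scavenger of CCL2 and other chemokines on venular endothelium and red cells, had 0.147, 0.375 and 0.0920 CPM in the control mice, 25.0, 36.8 and 25.7 in the LPS mice and 11.3 and 3.51 in the dual-treated mice. The dual-treated mice thus lay between the other groups. *Ackr2*, which takes up inflammatory CC chemokines, ranged from 32.3 to 51.4 CPM over the 8 mice; its log2FC was 0.47 with LPS and -0.34 from LPS to dual treatment.

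A list of 16 genes held inducers of these chemokines and genes of their signalling, among them the inhibitor gene *Nfkbia*. With LPS 10 were called higher, and 8 were called lower in dual-treated against LPS lungs, with a median log2FC of 1.85 and -1.08. Without LPS mice 6 and 7 these counts were 12 and 10, and with library size only they were 9 and 6, with 2 others called higher from LPS to dual treatment. *Il6*, an inflammatory cytokine, had the largest log2FC of the list in both comparisons, with 1.17, 1.27 and 0.644 CPM in the control mice, 199.8, 33.4 and 85.7 in the LPS mice and 2.59 and 0.659 in the dual-treated mice. The dual-treated mice were thus close to the control mice for *Il6*, whereas for each of the 6 chemokines they lay above all control mice. Against control 5 of the 16 were called higher in dual-treated lungs, and 3 without dual-treated mouse 2. The summed level of the 16 ran from 847 to 862 CPM in the control mice and from 4398 to 6195 in the LPS mice. It was 1861 and 1403 in dual-treated mice 2 and 5. *Nfkbia*, which encodes an inhibitor of NF-kB, was the most abundant. It had 1743, 1382 and 1263 CPM in the LPS mice and 463 and 300 in the dual-treated mice.

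Markers of cells that carry *Ccr2* or make these chemokines moved with the groups, and their part in the changes above was not tested. Of 6 classical monocyte markers, 5 were called higher with LPS and all 6 with the dual treatment against control. The list summed to 46.7, 54.2 and 45.9 CPM in the control mice, 542, 554 and 376 in the LPS mice and 424 and 442 in the dual-treated mice, with *Plac8* as the most abundant. *Ly6c2*, a surface gene of the classical monocytes that normally carry CCR2, had 5.77, 6.19 and 8.83 CPM in the control mice, 78.6, 85.9 and 50.9 in the LPS mice and 80.4 and 79.3 in the dual-treated mice. Counts of *Ccr2* relative to *Ly6c2* were 3.76, 2.70 and 2.01 in the control mice, 0.0294, 0.0242 and 0.0340 in the LPS mice and 0.312 and 0.385 in the dual-treated mice. This ratio was thus lower in every treated mouse than in every control mouse, and lowest in the LPS mice. The ratio was chosen after the values had been seen and was not tested.

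*F13a1*, also a classical monocyte gene, had 8.32 to 11.4 CPM in the control mice, 12.7 to 16.4 in the LPS mice and 96.8 and 109.9 in the dual-treated mice. It was called higher from LPS to dual treatment (log2FC 2.87), and *Vcan* lower (-1.30, or -0.95 and not called with library size only). Of 5 patrolling monocyte markers, 4 were called higher and *Cx3cr1* lower with LPS, 3 were called higher with the dual treatment against control, and from LPS to dual treatment 4 were called higher and *Nr4a1*, the most abundant, lower. Without dual-treated mouse 5 the last comparison gave 2 higher. With LPS the call of *Treml4* was lost without control mouse 1, 2 or 4 (log2FC 1.32, 1.36 and 1.51), without LPS mouse 6 or 7 (1.20 and 1.38), without both of these (0.88) and with library size only (1.12). *Cx3cr1* had 6.21, 6.10 and 6.71 CPM in the control mice, 1.25, 0.751 and 0.112 in the LPS mice and 1.77 and 20.3 in the dual-treated mice. Unlike those of *Ccr2*, its values differed widely between the dual-treated mice, and its call from LPS to dual treatment was lost without dual-treated mouse 5 (log2FC 1.32) and without LPS mice 6 and 7 (3.14), where its call with LPS was also lost (-2.34). The list summed to between 66.2 and 85.6 CPM in the control mice, to 639, 336 and 343 in the LPS mice and to 182 and 372 in the dual-treated mice. Most of the sum in the LPS mice was *Nr4a1*, with 605, 269 and 298 CPM, against 75.9 and 149 in the dual-treated mice. The sum thus follows a gene whose call from LPS to dual treatment was opposite to those of the other 4. *Nr4a1*, not called with the dual treatment against control (log2FC 1.07), became called higher with library size only (1.11), no filter on low counts (1.07) and unadjusted p. This was also so in the fit of only the groups compared (1.09) and without LPS mouse 1 (1.07), dual-treated mouse 2 (1.45) or LPS mice 6 and 7 (1.07).

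Of 9 markers of interstitial and recruited macrophages, 2 were called lower with LPS (*Ms4a7* and *Csf1r*) and 6 higher with the dual treatment against control. From LPS to dual treatment 8 were called higher. Without dual-treated mouse 5 the calls of *Ms4a7* (log2FC 1.32) and *Apoe* (0.91) in this comparison were lost. The call of *Csf1r* with the dual treatment against control (log2FC 1.02) was lost with DESeq2 size factors (0.998) and DESeq2 (0.995). It was also lost without control mouse 1 (0.97), control mouse 2 (0.98) or dual-treated mouse 5 (0.55). With LPS the call of *Csf1r* was lost with DESeq2 size factors (log2FC -0.98) and DESeq2 (-0.99). The 2 calls with LPS were lost without control mouse 4 or LPS mouse 7. There the log2FC was -1.16 and -0.87 for *Ms4a7* and -0.93 and -0.91 for *Csf1r*. Without control mouse 1, control mouse 2 or LPS mouse 6 the count of these calls was 1. Both were also lost without LPS mice 6 and 7 (-0.25 and -0.90), where 6 markers were called higher from LPS to dual treatment. *C1qa*, a complement gene of tissue macrophages, had 29.3, 20.3 and 27.1 CPM in the control mice, 19.6, 18.7 and 17.4 in the LPS mice and 122 and 109 in the dual-treated mice. *C1qb*, of the same complex, had 35.1, 27.2 and 38.3 CPM in the control mice, 49.4, 50.4 and 42.3 in the LPS mice and 184 and 169 in the dual-treated mice. With LPS the log2FC was thus of opposite sign for *C1qa* (-0.46) and *C1qb* (0.50), and neither was called. The list, in which *Apoe* was the most abundant, summed to between 946 and 1093 CPM in control, 551 and 723 in LPS and 1541 and 1953 in dual-treated mice. *Apoe* alone had 699.8 to 776 CPM in control, 340 to 455 in LPS and 728 and 1068 in dual-treated mice. Its log2FC with LPS was -0.95. It became called lower with library size only (-1.25), with upper quartile scaling (-1.05) and without LPS mouse 1 (-1.09). Of 7 alveolar macrophage markers, 1 was called higher and 2 lower with LPS, 1 higher with the dual treatment against control, and 3 higher and 1 lower from LPS to dual treatment. The higher call with LPS, that of *Plet1*, was lost without LPS mouse 1 (log2FC 0.95) or control mouse 1 (0.98, with *Marco* called in its place at 1.09), and with library size only (0.74) or upper quartile scaling (0.94). From LPS to dual treatment the count was 1 higher and 1 lower without dual-treated mouse 5, and 2 higher and 2 lower without LPS mice 6 and 7, with the call of *Siglecf* lost (1.12) and *Itgax* called lower (-1.03). Their sum, mainly of *Chil3*, ran from 526 to 766 CPM in control, 496 to 958 in LPS and 911 to 1473 in dual-treated mice.

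Of 7 neutrophil markers, 6 were called higher with LPS and 6 with the dual treatment against control. From LPS to dual treatment 4 were called higher and 1 lower. The count of 4 was 2 without LPS mouse 1, 2 without LPS mouse 7, 1 without dual-treated mouse 5 and 1 without LPS mice 6 and 7, where the lower call, that of *Ly6g*, was lost as well (log2FC -2.08). The list summed to between 118 and 214 CPM in control, 1843 and 2948 in LPS and 1715 and 2387 in dual-treated mice, with *S100a9* as the most abundant. Of 6 lymphocyte markers, 3 were called lower with LPS, and from LPS to dual treatment 2 were called higher and 1 lower. The counts of 3 and 2 were each 1 without LPS mice 6 and 7, and the latter was also 1 without dual-treated mouse 2. The lower call, that of *Cd3d*, was lost without LPS mouse 1 (log2FC -1.22), LPS mouse 6 (-0.97), dual-treated mouse 2 (-1.63) or dual-treated mouse 5 (-1.05), with library size only (-0.95) and in the fit of only the groups compared (-1.31). Their sum ran from 23.4 to 26.0 CPM in control and 7.70 to 13.7 in LPS mice and was 42.8 in dual-treated mouse 2 and 15.5 in mouse 5. *Cd79a* was the most abundant except in LPS mouse 6, where *Cd3d* was. Of 8 genes of lung epithelium, endothelium and stroma, 2 were called lower with LPS, or 4 without control mouse 2 or LPS mouse 1. The added ones, *Sftpc* and *Sftpb*, were also called with library size only (log2FC -1.24 and -1.21) and upper quartile scaling (-1.03 and -1.01). From LPS to dual treatment 2 of the 8 were called higher and 1 lower. The lower call, that of *Scgb1a1*, was lost with library size only (log2FC -0.95). Without LPS mice 6 and 7 the log2FC of *Ager* in this comparison was -1.03, against -0.68 with all mice. The list summed to between 67415 and 74105 CPM in control and 69621 and 93813 in LPS mice. It summed to 41899 and 55547 CPM in dual-treated mice 2 and 5, below all others, with *Scgb1a1* as the most abundant throughout. No marker of these lists was at 0 in all libraries.

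The genes most like each member were sought among 15613 tested genes with a mean of at least 1 CPM, by Pearson's r of log2 CPM over the 8 mice. *Ccr2* was most like *Gm26878* (r = 0.999), *Mpp1* (0.997) and *Cnpy4* (0.996). *Ccl12* was most like *Ikzf1* (0.998), *Csf2rb2* (0.997) and *Arpc1b* (0.995), and *Ccl9* like *Rcc1* (0.996), its receptor gene *Ccr1* (0.990) and *Eif3i* (0.989). For *Ccl2* they were *Gm7730* (0.992), *Adora3* (0.988) and *Myo5a* (0.987). *Ccl7* came closest to *Ccnb1* (0.988), *Tusc1* (0.983) and *Bcl2a1b* (0.972), *Ccl8* to *Clec5a* (0.986), *Mcm3* (0.984) and *Zdhhc12* (0.981), and *Ccl6* to *Cmpk1* (0.986), *Tbxas1* (0.976) and *Fuca1* (0.975). The 8 mice form 3 groups and share their library scaling, so that a gene with the same group means reaches a high r, and these values describe the pattern only.

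The chemokines among the members are paralogs, whose reads could be split between them. *Ccr2* was not compared in this way with other receptor genes. The longest identical run shared with another CC ligand of the lists was 25 bases between the canonical transcripts of *Ccl6* and *Ccl9* and 23 between those of *Ccl2* and *Ccl7*. The antisense gene *E230016K23Rik* overlaps *Ccl6* and *Ccl9* in the GENCODE M39 annotation, with at most 9 counts in any library. The authors' annotation release and strand setting are not stated, so reads of overlapping genes cannot be told apart.

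Promoter sequences were held by the RefSeq table (GRCm38.p6) for 5 of the 7 genes, *Ccl8*, *Ccl12*, *Ccl6*, *Ccl9* and *Ccr2*; *Ccl2* and *Ccl7* were not in it. The 250 bases before the start are shown for the 4 chemokines, since these were higher together in all treated mice. Capitals mark matches to the searched motifs, which were the TATA box TATAAA on the strand of the gene and, on both strands, the AP-1 motif TGANTCA, the PU.1 core GAGGAA, an NF-kB motif of GGG and CC with 5 bases between them, and an ISRE motif of GAAA written with 2 bases between its copies. The sequences were taken from chr11:82101595-82101844 on the plus strand for *Ccl12*, chr11:82114935-82115184 on the plus strand for *Ccl8*, chr11:83578637-83578886 on the minus strand for *Ccl9* and chr11:83593088-83593337 on the minus strand for *Ccl6*, all in GRCm38.p6.
Ccl12: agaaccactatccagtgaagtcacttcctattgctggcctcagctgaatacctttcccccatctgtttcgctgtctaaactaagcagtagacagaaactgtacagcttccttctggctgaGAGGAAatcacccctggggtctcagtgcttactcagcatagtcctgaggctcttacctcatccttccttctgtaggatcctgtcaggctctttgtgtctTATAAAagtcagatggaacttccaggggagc
Ccl8: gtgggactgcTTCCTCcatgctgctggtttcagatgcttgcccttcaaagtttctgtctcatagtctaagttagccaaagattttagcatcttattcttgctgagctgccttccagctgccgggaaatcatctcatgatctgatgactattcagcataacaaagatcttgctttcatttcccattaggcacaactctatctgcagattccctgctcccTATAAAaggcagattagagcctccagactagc
Ccl9: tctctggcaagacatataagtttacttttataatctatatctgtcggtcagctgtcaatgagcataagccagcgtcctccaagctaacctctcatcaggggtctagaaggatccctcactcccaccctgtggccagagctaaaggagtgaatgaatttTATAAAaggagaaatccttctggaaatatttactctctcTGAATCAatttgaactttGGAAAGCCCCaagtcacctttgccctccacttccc
Ccl6: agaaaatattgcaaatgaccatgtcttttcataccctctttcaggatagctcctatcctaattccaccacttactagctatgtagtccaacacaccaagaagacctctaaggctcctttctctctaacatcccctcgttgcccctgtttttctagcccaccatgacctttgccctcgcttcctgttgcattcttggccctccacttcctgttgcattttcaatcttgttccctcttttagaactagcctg

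The TATA box letters began 31 bases before the start of *Ccl12* and 32 before that of *Ccl8*, and 92 before that of *Ccl9*. They are present in the same window of 7.59% of 32851 promoters. The PU.1 core was matched in *Ccl12* and *Ccl8*, and in 23.3% of all promoters. *Ccl9* held a match to the AP-1 motif (6.75% of all promoters) and 1 to the NF-kB motif (45.8%). The ISRE motif (2.98% of all promoters) had no match in the 5 promoters, and *Ccl6* and *Ccr2* had no match to any of the 5 motifs. A match describes the letters of the window and not the binding of a factor.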

How the data were processed

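The deposited values are raw read counts per gene and mouse, which the authors made with FastQC 0.11.9, Trim Galore, HISAT2 2.2.1 on GRCm39 and featureCounts 2.0.1, per the labels. Handling of reads that map to several genes is not stated. Symbols came from GENCODE M39, which held 54749 of 55416 listed identifiers; the others held 0.0533% of counts. Counts of 3 control, 3 LPS and 2 dual-treated mice were fitted together by edgeR 4.0.16 in R 4.3.3 with TMM factors, filterByExpr with a minimum count of 10 and group as the only term, leaving 5 residual degrees of freedom. P-values of the quasi-likelihood test were adjusted by Benjamini-Hochberg over all 18560 tested genes. Log2 CPM for likeness used a prior count of 2. Summaries and plots used Python 3.11.15, NumPy 2.4.6, pandas 2.3.3, SciPy 1.17.1 and matplotlib 3.10.9.

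The named genes were the 7 members, the 3 genes most like each, and the genes of lists of other CC ligands, other CC receptors and scavengers, inducers, and markers of classical and patrolling monocytes, interstitial and alveolar macrophages, neutrophils, lymphocytes, lung, squamous epithelium and skeletal muscle. Single marker genes given with their values were chosen after these were seen. The members and lists were chosen with earlier results of these data known. RefSeq promoters matched 5 of the 7 members by symbol. Alternatives were 3 other scalings (library size only, DESeq2 size factors, upper quartile), DESeq2 1.42.0, 2 other filters on low counts, fits of only the groups compared, unadjusted p, a test against a fold change of 2, each library left out, and LPS mice 6 and 7 left out. Counting precision is set by totals of 19061949 to 20908608 per library.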

Additional observations from a re-analysis of the deposited data

How the results depend on the processing

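Under 18 other settings, 359 of 378 values of the members kept their direction and their side of the thresholds. Of the rest, 10 were no longer called, 5 became called and 4 changed sign. Unadjusted p and the test against a fold change of 2 keep the log2FC of the reported fit, so direction could not change there. The sign changes were in dual-treated against LPS lungs and were not called: *Ccl7* had a log2FC of -0.05 without LPS mouse 7, -0.21 without dual-treated mouse 2 and -0.44 without LPS mice 6 and 7, and *Ccl9* had -0.36 without dual-treated mouse 2. With 1 library left out they ran from -0.21 to 0.80 for *Ccl7* and from -0.36 to 0.85 for *Ccl9*.

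The test against a fold change of 2 called 4780 genes with LPS, 368 with the dual treatment against control and 3378 between the treated groups, in place of 7279, 1327 and 6264, since it asks more of each gene. Of the members it called 5, 4 and 1, with *Ccl6* and *Ccl8* no longer called against control in either treated group. With 1 library left out these counts ran from 6866 to 7595, from 752 to 1831 and from 5231 to 6188, the lowest and highest against control in dual-treated lungs being those without dual-treated mouse 2 and mouse 5. Members called ran from 6 to 7, from 5 to 6 and from 1 to 2 with 1 library left out. Between the treated groups 2 members were called with library size only (*Ccr2* and *Ccl6*) and 2 without LPS mice 6 and 7 (*Ccr2* and *Ccl2*); the cause was not tested.

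*Ccr2* kept its calls under all 18 settings, with a log2FC from -3.49 to -3.01 with LPS and from 3.58 to 4.10 between the treated groups. With 2 dual-treated mice, and 1 where a mouse of this group is left out, the lone mouse is assumed to vary like the others. Differences in *Ccl8*, with 11 to 71 counts per library, are limited by depth. No paired analysis was possible because the groups hold different mice.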
